A study of Mus musculus with 17 samples.

Results

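Oligodendrocytes are the glial cells that wrap axons of the central nervous system in myelin, and 30 genes of their lineage were followed across the libraries of this series. The genes were a fixed list of symbols, matched to the Ensembl identifiers of the deposited tables through GENCODE M21, and all 30 were found among 46073 genes. They fall into 4 sets by the stage at which they are best known. The precursor set holds 3 genes (Pdgfra, Cspg4, Lhfpl3) and the differentiating set holds 3 (Gpr17, Bcas1, Enpp6). Another 4 are transcription factors of the lineage (Sox10, Olig1, Olig2, Nkx2-2), and the remaining 20 are genes of mature, myelin-forming cells.

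The lineage runs from dividing precursor cells, which depend on the growth factor receptor PDGFRα, through a short-lived committed stage to cells that make myelin. Myelin is a stack of membrane rich in galactolipids and in a few abundant proteins, such as myelin basic protein, which holds the cytoplasmic faces of the membrane together. In the cortex the myelinating cells lie mainly in the deep layers and in the white matter beneath, so the amount of their RNA in a dissected piece also depends on where it was taken.

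Polyadenylated RNA was sequenced from frontal cortex, and all mice were males of the FVB/N strain. The 6 control libraries (Ct) came from mice of genotype CamK, which carry only the driver transgene. The 6 dTg libraries used here, numbered 2 to 7, came from untreated mice of genotype dTg-211, which carry the driver and a transgene for the microRNA miR-211. The 3 dTgDox libraries came from dTg-211 mice that received doxycycline for 4 days. A CamK driver is active in excitatory neurons of the forebrain and not in oligodendrocytes, and in a Tet-off pair doxycycline switches the second transgene off. Doxycycline was given in no Ct library, so an effect of the drug itself and of switching miR-211 off cannot be told apart. The files labelled dTg replicate 1 and NTg replicate 1 (the miR-211 transgene without CamK) hold identical values for all 46073 genes, and this doubly deposited library was kept apart from every group. The labels number the samples but do not state that each came from its own mouse, so p-values measure the spread between these samples. In bulk RNA, fewer cells of a type and less RNA per cell cannot be told apart.

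Values are FPKM, in which reads are divided by transcript length and by the mapped total of the library, so levels can be compared between genes as well as between libraries. The read depth behind them is unknown. The total per library was 628549 to 695518 FPKM in the 15 libraries compared, and 15762 to 16085 genes reached 1 FPKM. Differences are log2 differences between group means of log2(FPKM + 0.5), which understate the change of genes with low FPKM. A gene is said to have risen or fallen only where the p-value of limma, adjusted by the Benjamini-Hochberg method over the 19064 genes tested, was under 0.05. All 30 genes passed the filter for testing.

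The microRNA switched by the transgenes is shown first because its seed defines which transcripts carry a matching site. The mature strand miR-211-5p lies at chr7:64205831-64205852 on the plus strand of GRCm38.p6, and the capitals mark its seed, bases 2 to 8, as given by RefSeq.
mmu-miR-211-5p: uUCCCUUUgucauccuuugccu

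Matches to this seed were searched on the transcript strand of the longest 3′ untranslated region of each gene in GENCODE M21. The classes were an 8mer (AAAGGGAA), a 7mer-m8 (AAAGGGA), a 7mer-A1 (AAGGGAA) and a 6mer (AAGGGA), where each gene counts under its longest match. Of the 30 genes, 1 had an 8mer, 5 had a 7mer-m8, 4 had a 7mer-A1, 3 had a 6mer and 17 had none. Over the 14374 tested genes with such a region the shares were 7.54% with an 8mer, 9.98% with a 7mer-m8, 8.83% with a 7mer-A1, 13.4% with a 6mer and 60.2% with none. The sites below belong to genes that results turn on or that hold one of the longer matches, with the match in capitals and neighbouring bases in lower case.
Bcas1, 8mer: aattcccaacttcaAAAGGGAAacag
Mag, 7mer-m8: cccaggacctgtacaAAAGGGAcatg
Mal, 7mer-m8: cactccttgtgggagAAAGGGAcctg
Enpp6, 7mer-m8: taccacagagaaatgAAAGGGAtggt
Ermn, 7mer-A1: taagagaggcaagtcAAGGGAAagag
Nkx6-2, 7mer-A1: cttcagccgccggggAAGGGAAggac
These matches describe letters only. In the comparison of dTg with Ct, where the miR-211 transgene is the difference, the fitted log2 differences of these genes were 0.09 for Bcas1, 0.14 for Mag, 0.18 for Mal, 0.06 for Enpp6, 0.09 for Ermn and -0.03 for Nkx6-2. The other genes with a match of 7 bases had 0.12 (Mbp), 0.11 (Mobp), 0.09 (Gpr17) and -0.27 (Lhfpl3), the last being the lowest of the 30 genes. None of the 10 passed the test.

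The 250 bases before the start site were read for the genes that have an entry in the RefSeq table of GRCm38.p6, which gave 27 windows for 21 of the 30 genes. Both strands were searched for a core SOX motif in the form ACAAAG or the form ACAATG, for the MYRF motif CTGGCAC, and for E-boxes of the form CAGATG or of the form CAGCTG. The first SOX form stood in 29.6% of these windows and in 16.5% of 32851 windows of all genes, the second in 14.8% and 10.7%, and the MYRF motif in 11.1% and 4.19%. The first E-box stood in 22.2% and 14.4%, and the second in 7.41% and 13%. The first SOX form stood in 8 of the 27 windows and the MYRF motif in 3, from Cnp and Mag. Overlapping windows of Mag hold the same match to each of these motifs, so it is counted more than once. Differences from the shares of all genes were not tested. The windows of 3 genes are shown, 2 that rose after doxycycline (Ermn and Anln) and 1 that did not pass the test (Mag), with the motifs found in capitals and none of them overlapping another. Ermn, chr2:58052865-58053114, minus strand, has 1 match to the second SOX form. Anln, chr9:22389207-22389456, minus strand, has none of the motifs. Mag, chr7:30914923-30915172, minus strand, has the first SOX form, read from the other strand as CTTTGT, and the MYRF motif.
Ermn: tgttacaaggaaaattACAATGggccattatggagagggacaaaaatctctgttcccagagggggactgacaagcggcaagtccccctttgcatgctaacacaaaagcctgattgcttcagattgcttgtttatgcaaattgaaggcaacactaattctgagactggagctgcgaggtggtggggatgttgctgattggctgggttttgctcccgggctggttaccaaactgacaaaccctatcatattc
Anln: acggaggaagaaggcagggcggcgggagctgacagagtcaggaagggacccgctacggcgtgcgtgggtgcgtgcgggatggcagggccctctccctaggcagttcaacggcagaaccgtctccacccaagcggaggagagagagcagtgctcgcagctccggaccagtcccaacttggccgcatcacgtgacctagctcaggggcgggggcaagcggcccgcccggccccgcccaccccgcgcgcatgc
Mag: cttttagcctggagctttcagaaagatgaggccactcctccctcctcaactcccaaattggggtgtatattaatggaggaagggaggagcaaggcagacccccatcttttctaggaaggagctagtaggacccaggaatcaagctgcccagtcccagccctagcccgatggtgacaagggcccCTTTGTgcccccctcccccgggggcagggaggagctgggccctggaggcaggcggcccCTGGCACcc

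Before the groups are compared, the regional make-up of the libraries needs stating. Marker genes of hippocampal neurons averaged 1.60 to 1.96 on the log2 scale in Ct and 1.68 to 1.81 in dTg, against 4.06 to 4.25 in the 3 dTgDox libraries, and 10 of 13 rose against dTg. The summed level of that list was 97.2 to 114 FPKM in the Ct and dTg libraries and 317 to 369 FPKM in the dTgDox libraries. Of 11 markers of cortical excitatory neurons, 5 fell and 2 rose against dTg. Over all genes tested, 9.65% rose and 9.22% fell in that comparison. Striatal markers ranged from 1.84 to 5.11 in Ct and from 1.72 to 4.35 in dTg but only from 1.74 to 1.90 in dTgDox, and olfactory bulb markers from 1.02 to 4.25, from 1.12 to 3.60 and from 0.99 to 1.29. The doubly deposited library stood apart from all others, with cerebellar markers at 7.82 against 1.23 to 2.56. Hippocampal markers and doxycycline divide the libraries in the same way, so their parts in any difference of the dTgDox group cannot be told apart.

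Oligodendrocyte genes spanned a wide range of levels within the control cortex. Mbp, which encodes myelin basic protein, was the most abundant at 827 ± 238 FPKM (SD, n = 6) in Ct, followed by Mobp, an oligodendrocyte protein of the same cytoplasmic face, at 189 ± 60.6 FPKM. Trf, the iron carrier transferrin, stood at 117 ± 39.3 FPKM and Cnp, a phosphodiesterase of the myelin cytoplasm, at 97.1 ± 26.0 FPKM. Precursor genes were lower than these 4, with Lhfpl3 at 14.0 ± 4.93 FPKM, Pdgfra at 8.69 ± 1.50 FPKM and Cspg4, the NG2 proteoglycan, at 2.03 ± 0.177 FPKM. The stages overlapped in level, since mature genes such as Opalin (5.52 ± 2.03 FPKM) and Anln (3.77 ± 0.900 FPKM) lay below Pdgfra. The lineage factors ran from Olig1 at 39.9 ± 5.66 FPKM to Nkx2-2 at 1.96 ± 0.382 FPKM. Lineage and myelin markers were thus present in every library labelled frontal cortex.

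Exons of 12 of the 30 genes overlap another annotated gene, and whether reads were counted by strand is not given in the sources used here. The overlap with a gene on the opposite strand was 12.9% of exon bases for Nkx6-2 (with Inpp5a), 17.6% for Lhfpl3, 11.7% for Bcas1, 7.3% for Olig1 and 6.5% for Ermn (with Galnt5). Trf shares 63.5% of its exon bases with the gene model Gm20425 on the same strand, so reads of Trf and of Gm20425 may not be told apart. The other overlaps covered under 10% of exon bases.

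The mature genes varied together from library to library within a group. In Ct the highest library exceeded the lowest by 1.46 times for Car2 and by 3.05 times for Trf, the extremes of the mature set, and in dTg by 1.75 times for Car2 and by 3.65 times for Anln. dTg replicate 5 was the lowest of the 15 libraries for 13 of the 20 mature genes, Ct replicate 2 for 4 and Ct replicate 3 for 3. Among Ct and dTg libraries, dTg replicate 2 was the highest for 14 of the 20, Ct replicate 4 for 3 and dTg replicate 4 for 3. After each group's mean was removed, Pearson's r over 15 libraries between pairs of mature genes had a median of 0.933 over 190 pairs and ran from 0.758 to 0.994. These correlations are descriptions, because all genes of a library share its dissection and depth.

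The other stages followed the mature genes to differing degrees. Bcas1, a gene of newly forming myelin, tracked them most closely, with a median r of 0.958 against the 20 mature genes. Sox10, the factor needed for terminal differentiation, had a median r of 0.829, Olig1 0.746, Enpp6 0.734 and Nkx2-2 0.731. Olig2 stood at 0.35, and Gpr17, a receptor of committed cells, at 0.566. The precursor genes were scattered, with Lhfpl3 at 0.541, Pdgfra at -0.07 and Cspg4 at -0.49. The heat map of the 30 genes shows this as vertical stripes that run through the mature block and fade in the precursor rows.

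**Figure D1:**
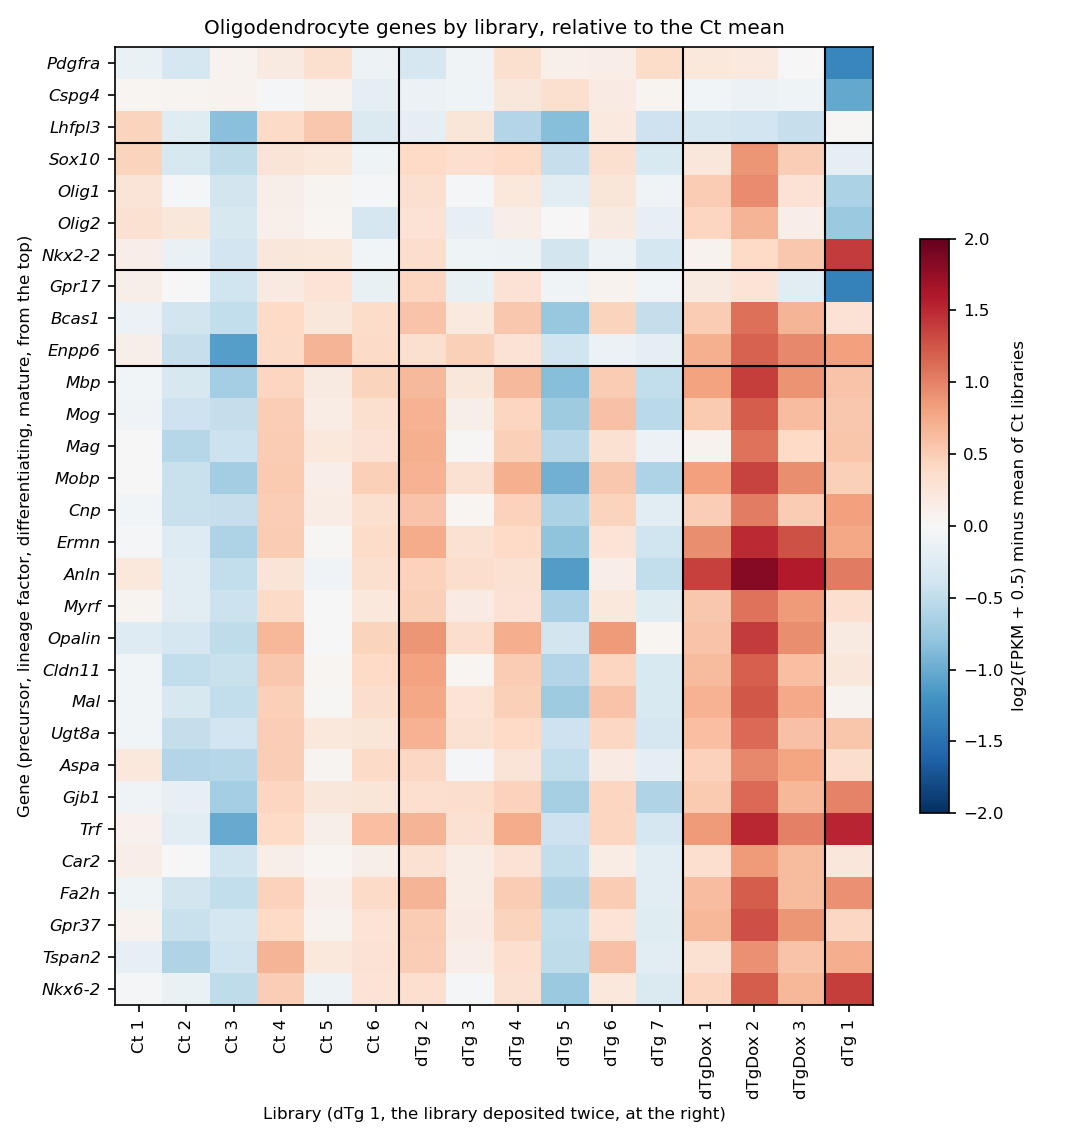
Each cell is log2(FPKM + 0.5) of a gene (rows, grouped by stage) in a library (columns), minus the mean of the 6 Ct libraries, so red is above and blue below that mean. The mature genes change together within a library, and the 3 dTgDox columns are red in nearly all mature rows and pale in the rows of Pdgfra, Cspg4 and Gpr17.

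The mature level was also set beside regional markers among the untreated libraries. The mean log2 level of the 20 mature genes was 5.19 in Ct replicate 4, 5.07 in Ct replicate 6, 5.33 in dTg replicate 2 and 5.13 in dTg replicate 6, which are the 4 libraries with striatal markers above 4. It was also 5.19 in dTg replicate 4, where striatal markers averaged 1.72. The lowest mature levels, 4.09 in dTg replicate 5, 4.21 in Ct replicate 3, 4.38 in Ct replicate 2 and 4.41 in dTg replicate 7, came with striatal markers between 1.84 and 2.02. The remaining libraries lay between, with mature levels of 4.72 in Ct replicate 1, 4.82 in Ct replicate 5 and 4.92 in dTg replicate 3, and striatal markers were at 1.99 in the first of these and 3.53 in the last. A low striatal level thus came with mature levels from 4.09 to 5.19, and the part of dissection in the spread was not tested.

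Transgenic expression of miR-211 was compared with the driver alone first. None of the 30 oligodendrocyte genes passed the test between dTg and Ct. The fitted log2 differences of the 30 genes had a median of 0.09, against 0.00 over all genes tested. Of the 30, 26 were positive and 4 negative, beside 48% positive over all genes. The mature genes varied together between libraries, so these signs are not independent of each other. None of the 30 was called, every adjusted p was above 0.99, and none had an unadjusted p under 0.05. In this comparison limma called 0% of the 19064 genes (0 genes), and 607 genes (3.18%) had an unadjusted p under 0.05. The Ct and dTg ranges of all 30 genes overlapped, whereas 0.0787% of all genes lay wholly higher in dTg and 0.0525% wholly lower.

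The intervals show which sizes the comparison could leave undetected. Mbp ranged from 496 to 1079 FPKM in Ct (median 837) and from 444 to 1250 FPKM in dTg (median 1031), and its log2 difference was 0.12 with a 95% interval of -0.50 to 0.73. The largest fitted difference was that of Opalin, a membrane glycoprotein of myelinating cells, at 0.41 (-0.13 to 0.96). Lhfpl3, a gene enriched in precursors, had the lowest at -0.27 (-0.78 to 0.25). Tighter limits came from the less variable genes, with Cspg4 at 0.09 (-0.09 to 0.28), Pdgfra at 0.09 (-0.18 to 0.36) and Olig1 at 0.08 (-0.19 to 0.35). No interval of the 30 genes reached 1 or -1 on the scale of log2(FPKM + 0.5). On that scale a 2-fold difference in FPKM comes out below 1 for genes with low FPKM. It therefore need not lie outside every interval.

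**Figure D2:**
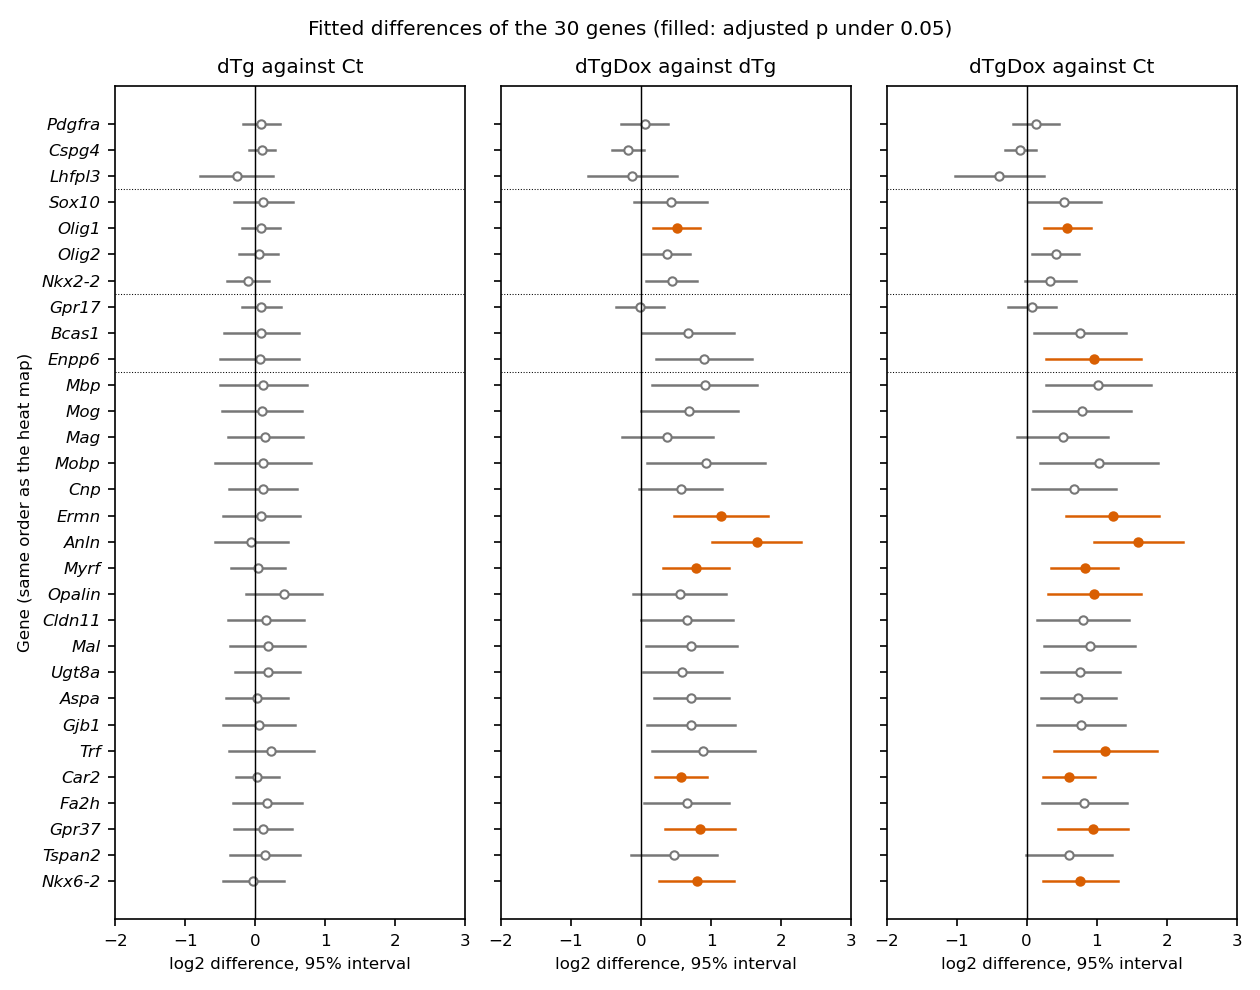
Points are fitted log2 differences of the 30 genes and bars their 95% intervals, in 1 panel for each comparison, with filled points where the adjusted p was under 0.05. No point is filled for dTg against Ct, 7 are filled for dTgDox against dTg and 10 for dTgDox against Ct, all to the right of 0.

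The group given doxycycline for 4 days was compared with both untreated groups. Against untreated dTg, 7 of the 30 oligodendrocyte genes rose and none fell: Anln, Ermn, Gpr37, Nkx6-2, Myrf, Car2 and Olig1. Of all genes tested, 9.65% rose and 9.22% fell in this comparison. The median log2 difference of the 30 genes was 0.66, against -0.01 over all genes, and 19 had an unadjusted p under 0.05, as did 32% of all genes. The ranges of 12 genes lay wholly above those of dTg, which was so for 11.3% of all genes, and none lay wholly below (10.9% of all genes). Leaving out dTgDox replicate 2 left 1 gene called, leaving out dTgDox replicate 3 left 2 and leaving out dTg replicate 7 left 4, while the doubly deposited library, when counted in dTg, left 2. Of all genes, 14%, 11.4%, 15.8% and 8.01% were called in either direction in the same order, against 18.9% in the main fit.

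Set against Ct, which has neither the miR-211 transgene nor doxycycline, the same 7 genes rose, and so did Trf, Opalin and Enpp6. These 10 genes compare with 9.86% of all genes that rose and 9.85% that fell. The median log2 difference of the 30 genes was 0.77, and 23 had an unadjusted p under 0.05, as did 32.6% of all genes. The ranges of 18 lay wholly above Ct, which was so for 11.5% of all genes, while none lay wholly below (11.8% of all genes). Both comparisons use the same 3 dTgDox libraries, so they are not independent of each other. The count was 1 without dTgDox replicate 2, 3 without dTgDox replicate 3, 6 without Ct replicate 2 and 16 without dTg replicate 5, and it was 5 with the doubly deposited library counted in dTg. Of all genes, 14.4%, 12%, 18.6%, 19.9% and 7.84% were called in either direction in the same order, against 19.7% in the main fit.

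By stage, most calls were of mature genes, which are also 20 of the 30. The shares called were 30% of the mature genes and 25% of the lineage factors against dTg. Against Ct they were 40% and 25%, and 33.3% of the differentiating genes. Over all genes tested, 9.65% rose against dTg and 9.86% against Ct. All 20 mature genes had a positive difference in both comparisons, with 6 called against dTg (median 0.72) and 8 against Ct (median 0.81). Positive differences made up 49.1% of all genes against dTg and 48.9% against Ct. Of the 4 lineage factors only Olig1 was called in each comparison, and the medians were 0.43 and 0.48. Of the 3 differentiating genes none was called against dTg and Enpp6 was called against Ct, with medians of 0.67 and 0.76. None of the 3 precursor genes was called, with medians of -0.12 and -0.09. A difference between stages was not tested.

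Genes of the oligodendrocyte cytoskeleton came first among those that rose. Anln (chr9:22332012-22389188, minus strand) encodes anillin, an actin and septin binding protein that serves cytokinesis and is also made by myelinating cells. It measured 2.47 to 4.74 FPKM in Ct (median 3.92), 1.43 to 5.23 in dTg (median 4.38) and 10.3, 14.3 and 12.1 FPKM in dTgDox. Every dTgDox library was above every Ct and dTg library, with a wide gap. The log2 difference was 1.65 ± 0.298 (SE) against dTg, adjusted p = 0.00145, and 1.59 ± 0.298 against Ct, adjusted p = 0.00184. It was called in each of the 29 alternatives of both comparisons.

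The calls of the other genes depended more on the processing and on the libraries. Against dTg, the call was lost in 10 of the 29 alternatives for Nkx6-2 and for Olig1, in 8 for Car2, in 4 for Ermn and for Myrf and in 3 for Gpr37. Against Ct it was lost in 19 for Enpp6, 13 for Nkx6-2, 11 for Opalin, 5 for Trf, 4 for Car2, 2 each for Ermn, Myrf and Olig1, and 1 for Gpr37.

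Ermn (chr2:58045113-58052864, minus strand) encodes ermin, an actin-binding protein of the outer myelin loops. It measured 7.38 to 16.7 FPKM in Ct (median 11.5), 6.42 to 19.7 in dTg (median 14.2) and 22.4, 33.5 and 28.5 FPKM in dTgDox. The dTgDox libraries were again above all the others. The difference was 1.14 ± 0.311 against dTg (adjusted p = 0.0207) and 1.23 ± 0.311 against Ct (adjusted p = 0.0137).

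Regulators of the mature state rose by less. Myrf (chr19:10208272-10240748, minus strand), the transcription factor that switches on myelin genes, measured 4.76 to 8.69 FPKM in Ct (median 6.71), 4.00 to 9.30 in dTg (median 7.54) and 9.82, 14.5 and 12.2 FPKM in dTgDox. All 3 dTgDox values exceeded the other 12, the lowest by a small margin. Its difference was 0.79 ± 0.223 against dTg (adjusted p = 0.0237) and 0.83 ± 0.223 against Ct (adjusted p = 0.0175).

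Nkx6-2 (chr7:139579376-139582797, minus strand), a homeodomain factor of maturing oligodendrocytes, measured 3.32 to 7.12 FPKM in Ct (median 4.74), 2.76 to 6.38 in dTg (median 5.33) and 6.81, 12.1 and 8.15 FPKM in dTgDox. The lowest dTgDox library lay inside the Ct range and above the dTg range. The difference was 0.80 ± 0.251 against dTg (adjusted p = 0.0383) and 0.77 ± 0.251 against Ct (adjusted p = 0.0439).

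Gpr37 (chr6:25665878-25690729, minus strand), an orphan receptor of maturing oligodendrocytes, measured 7.37 to 13.6 FPKM in Ct (median 10.7), 7.10 to 14.8 in dTg (median 11.9) and 16.4, 25.8 and 19.3 FPKM in dTgDox. No dTgDox library overlapped either group. Its difference was 0.84 ± 0.235 against dTg (adjusted p = 0.0221) and 0.95 ± 0.235 against Ct (adjusted p = 0.0112).

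Among the metabolic genes, Car2 and Trf were called. Car2 (chr3:14886273-14900770, plus strand), the cytosolic carbonic anhydrase of oligodendrocytes, measured 62.4 to 90.8 FPKM in Ct (median 86.9), 58.2 to 102 in dTg (median 91.4) and 104, 148 and 128 FPKM in dTgDox. The dTgDox range began just above the dTg range. Its difference was 0.57 ± 0.174 against dTg (adjusted p = 0.0323) and 0.60 ± 0.174 against Ct (adjusted p = 0.0241).

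Trf (chr9:103204001-103230444, minus strand) measured 54.9 to 167 FPKM in Ct (median 118), 82.5 to 184 in dTg (median 142) and 198, 316 and 222 FPKM in dTgDox. All dTgDox values were above the other groups. The difference was 1.12 ± 0.341 against Ct (adjusted p = 0.0349) and 0.89 ± 0.341 against dTg, which missed the threshold (adjusted p = 0.0872). The lipid enzymes Ugt8a, which makes galactosylceramide, and Fa2h, which hydroxylates its fatty acids, had differences of 0.77 and 0.82 against Ct (adjusted p = 0.0550 and 0.0555), and Aspa, the enzyme that splits N-acetylaspartate, 0.74 (adjusted p = 0.0522). Against dTg these were 0.59, 0.65 and 0.72, with adjusted p of 0.137, 0.127 and 0.0604.

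The structural proteins of myelin were mostly high in dTgDox without passing the test. Mbp (chr18:82475146-82585637, plus strand) measured 1387, 2078 and 1482 FPKM in dTgDox, above the highest Ct (1079) and the highest dTg library (1250). The 3 values do not overlap the other groups, yet the difference was 0.91 ± 0.350 against dTg (adjusted p = 0.0888) and 1.03 ± 0.350 against Ct (adjusted p = 0.0555). Mobp measured 319, 464 and 346 FPKM in dTgDox against at most 260 in Ct and 297 in dTg, with adjusted p of 0.121 and 0.0815. Its ranges did not overlap either.

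Opalin (chr19:41061710-41077113, minus strand) was the structural protein to be called, and that against Ct alone. It measured 3.53 to 8.66 FPKM in Ct (median 4.79), 3.98 to 10.1 in dTg (median 7.92) and 8.04, 14.7 and 10.4 FPKM in dTgDox. The lowest dTgDox library lay inside both ranges. The difference was 0.96 ± 0.311 against Ct (adjusted p = 0.0418) and 0.55 ± 0.311 against dTg (adjusted p = 0.244).

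None of the other structural genes passed the test in either comparison. Mal, a proteolipid of compact myelin, had 0.90 against Ct (adjusted p = 0.0527) and 0.72 against dTg (adjusted p = 0.118), and Cldn11, which forms the tight junctions of myelin, had 0.81 (adjusted p = 0.0803) and 0.66 (adjusted p = 0.157). Mog, the outermost glycoprotein, had 0.79 (adjusted p = 0.107) and 0.69 (adjusted p = 0.160), and Gjb1, a gap junction protein, 0.77 (adjusted p = 0.0794) and 0.72 (adjusted p = 0.104). Cnp had 0.68 and 0.57, and Tspan2, a tetraspanin, 0.60 and 0.47, with adjusted p from 0.105 to 0.288. Mag, the adhesion glycoprotein that faces the axon, had the smallest of the mature set at 0.52 against Ct and 0.37 against dTg, with adjusted p of 0.263 and 0.436. Mag measured 64.2, 131 and 81.3 FPKM in dTgDox, where the first lay near the middle of the Ct range of 41.1 to 87.6 FPKM.

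**Figure D3:**
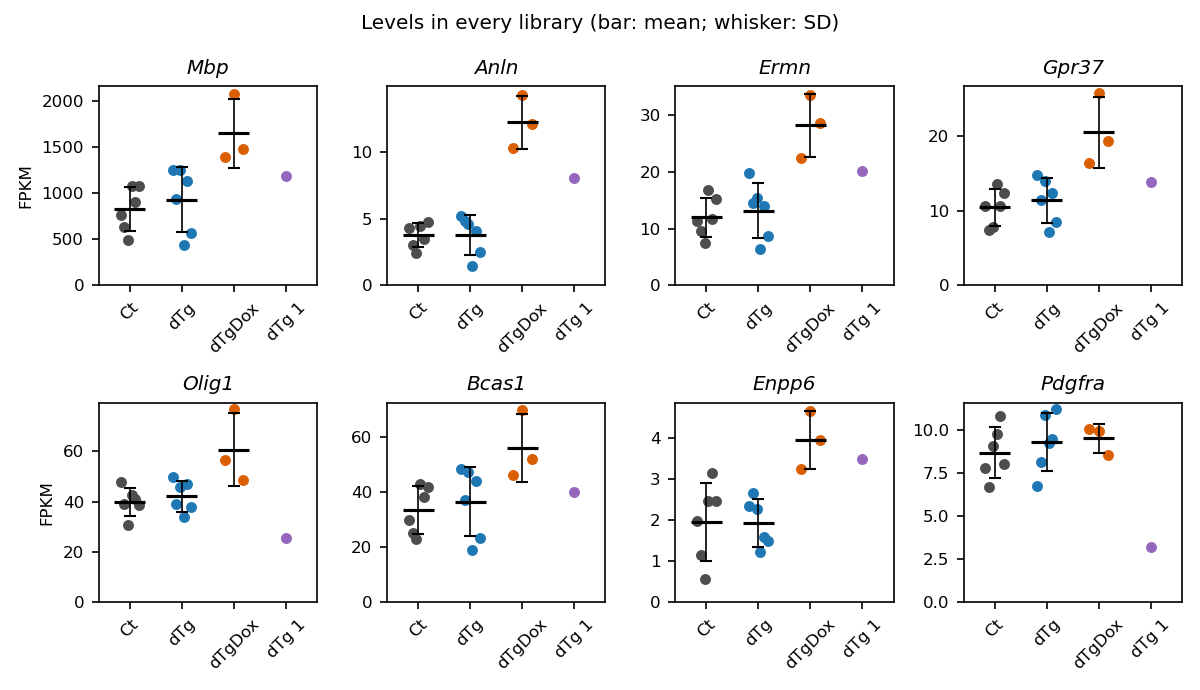
FPKM of 8 genes in each library of Ct, dTg and dTgDox, with bars at the group mean and whiskers of 1 SD, and the doubly deposited library shown apart as dTg 1. The dTgDox points of Mbp, Anln, Ermn, Gpr37 and Enpp6 lie above all Ct and dTg points, while those of Pdgfra lie among them.

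The lineage factors had smaller median differences than the mature genes. Olig1 (chr16:91269772-91271933, plus strand), a basic helix-loop-helix factor of the whole lineage, measured 30.5 to 47.6 FPKM in Ct (median 40.1), 33.8 to 49.7 in dTg (median 42.3) and 56.5, 76.8 and 48.7 FPKM in dTgDox. The third dTgDox library lay inside the dTg range. Its difference was 0.51 ± 0.155 against dTg (adjusted p = 0.0332) and 0.58 ± 0.155 against Ct (adjusted p = 0.0159). Its neighbour Olig2, which specifies the lineage, measured 11.2, 13.5 and 9.07 FPKM in dTgDox and had 0.37 (adjusted p = 0.122) and 0.42 (adjusted p = 0.0794). Sox10 had 0.42 (adjusted p = 0.254) and 0.54 (adjusted p = 0.141), and Nkx2-2 had 0.44 (adjusted p = 0.0856) and 0.34 (adjusted p = 0.188).

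The differentiating genes divided. Enpp6 (chr8:46986887-47096762, plus strand), a choline phosphodiesterase of newly formed oligodendrocytes, measured 0.560 to 3.14 FPKM in Ct (median 2.21), 1.22 to 2.66 in dTg (median 1.93) and 3.23, 4.66 and 3.94 FPKM in dTgDox. All 3 dTgDox libraries were above the other 12, the lowest by a small margin. The difference was 0.96 ± 0.321 against Ct (adjusted p = 0.0486) and 0.90 ± 0.321 against dTg (adjusted p = 0.0649), so the call against Ct stood at the edge of the threshold. Bcas1 measured 46.0, 70.0 and 52.0 FPKM in dTgDox and had 0.76 against Ct (adjusted p = 0.101) and 0.67 against dTg (adjusted p = 0.150). Gpr17, which marks the committed stage before myelination, measured 9.92, 10.6 and 7.32 FPKM in dTgDox, with differences of 0.07 (95% interval -0.27 to 0.41) and -0.01 (-0.36 to 0.33).

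The precursor genes stayed inside the control ranges. Pdgfra (chr5:75152292-75198215, plus strand) measured 6.69 to 10.8 FPKM in Ct (median 8.55), 6.72 to 11.2 in dTg (median 9.38) and 10.1, 9.95 and 8.57 FPKM in dTgDox. Its difference was 0.05 against dTg (95% interval -0.28 to 0.38, adjusted p = 0.861) and 0.14 against Ct (-0.19 to 0.47, adjusted p = 0.586). Cspg4 measured 1.93, 1.83 and 1.87 FPKM in dTgDox and had -0.18 (-0.41 to 0.05) and -0.09 (-0.32 to 0.14). Lhfpl3 measured 10.3, 10.1 and 9.48 FPKM, with wider intervals of -0.76 to 0.51 and of -1.03 to 0.24.

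The size of the change was not the same for every myelin gene. To set the genes against each other, the log2 level of each mature gene was taken relative to the mean of the other 19 in the same library, which removes what they share. Anln stood at -3.02 to -2.58 in Ct, -3.31 to -2.63 in dTg and -2.18 to -1.97 in dTgDox, and Ermn at -1.29 to -1.10, -1.37 to -1.04 and -0.92 to -0.70. These were the only 2 of the 20 mature genes whose relative level in all dTgDox libraries lay outside the range of the 12 others. Mag stood at 1.05 to 1.41 in Ct and 0.71 to 1.13 in dTgDox, so it was relatively low in dTgDox with a slight overlap. This measure was chosen after the levels were seen and carries no test.

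dTgDox replicate 2 held the highest level of all 15 libraries for each of the 20 mature genes. Replicate 1 was above every Ct and dTg library for 9 of them and replicate 3 for 12. Matching shares over all genes were not counted for single libraries, so these counts are descriptions. The mean mature level was 5.34, 5.96 and 5.52 in replicates 1 to 3, against 4.21 to 5.19 in Ct and 4.09 to 5.33 in dTg, so replicate 1 exceeded the highest untreated library only narrowly. The mean level of the precursor genes was 2.71, 2.67 and 2.58, inside the ranges of 2.54 to 3.07 in Ct and 2.55 to 2.93 in dTg.

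**Figure D4:**
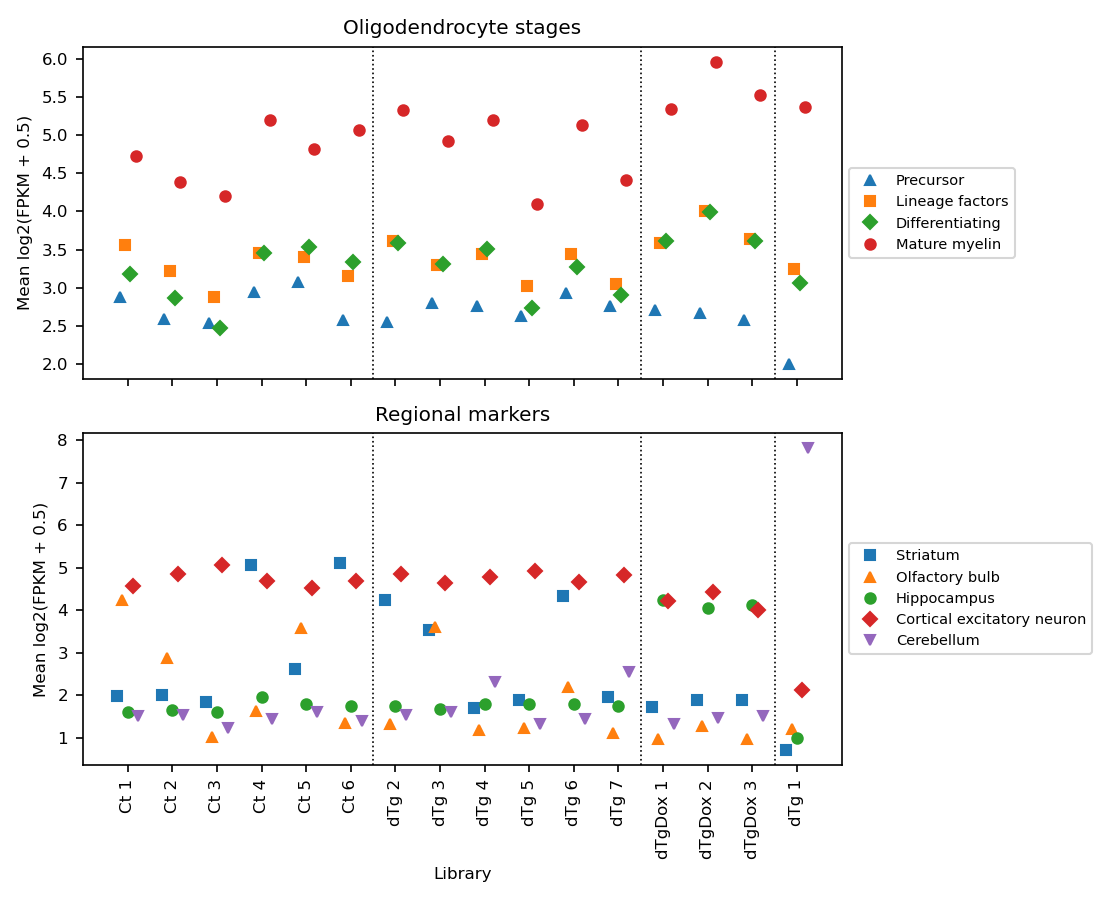
The upper panel gives the mean log2(FPKM + 0.5) of each stage in every library, and the lower panel that of marker lists of brain regions, with dotted lines between groups and the doubly deposited library, dTg 1, at the right. The mature level peaks at 5.96 in dTgDox replicate 2, while the precursor level of the dTgDox libraries lies inside the Ct and dTg ranges. Hippocampal markers are near 4 only in the dTgDox libraries.

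The dTgDox group was also compared with only those untreated libraries in which both striatal and olfactory bulb markers were under 3. These were 5 libraries, Ct replicates 2 and 3 and dTg replicates 4, 5 and 7, and olfactory bulb markers were still at 2.88 in Ct replicate 2. With these alone, 8 oligodendrocyte genes rose against dTg and 14 against Ct. Of all genes, 16% and 12.8% were called in either direction, and 46.9% and 46.3% of those calls were higher. This choice kept the untreated libraries with the lowest mature levels, Ct replicates 2 and 3 and dTg replicates 5 and 7. The Ct libraries kept stood at 4.38 and 4.21, against 4.72 to 5.19 in those left out. The choice itself thus favoured higher counts, and nothing is read from them. With the striatal and olfactory bulb marker levels as covariates over all 15 libraries, 24 rose in each comparison. There 25.8% and 23.8% of all genes were called in either direction, with 49% and 47.8% of those calls higher. The median difference of the mature genes was then 1.05 against dTg and 1.22 against Ct. Both alternatives were chosen after the data were seen, and neither touches the hippocampal markers.

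Other genes of mature oligodendrocytes, a list of 35 that excludes those above, had positive fitted differences throughout in both comparisons, and most did not pass the test. Against dTg 6 rose (17.1%, beside 9.65% of all genes), none fell and 29 did not pass, and against Ct 11 rose (31.4%, beside 9.86%), none fell and 24 did not pass. St18, a zinc finger factor, had the largest, at 1.54 ± 0.458 FPKM in Ct (SD, n = 6), 1.91 ± 0.595 in dTg (SD, n = 6) and 10.6 ± 1.94 in dTgDox (SD, n = 3), with a log2 difference of 2.23 against dTg (adjusted p = 9.1e-06). Serpinb1a, a protease inhibitor, rose by 1.25 (adjusted p = 0.0047), Cmtm5, a membrane protein of myelin, by 0.63 (adjusted p = 0.0075) and Il33, an alarmin cytokine, by 1.11 (adjusted p = 0.0085) against dTg. Of 15 enzymes of myelin lipids 2 rose and 1 fell against dTg, namely Degs1, a ceramide desaturase, by 0.32 and Galc, which degrades galactosylceramide, by 0.23, while Fads1, a fatty acid desaturase, fell by 0.20 on the log2 scale. Against Ct, 3 rose and 1 fell, with Gal3st1, the sulfatide synthase, at 0.52 and Cers2, a ceramide synthase, at 0.45. The enzymes that rose were 13.3% and 20% of their list, beside 9.65% and 9.86% of all genes, so nothing is read from these counts.

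Lists of earlier stages showed no common direction. Of 13 tested further genes of differentiating cells, 1 rose against dTg and 2 against Ct, with Mycl, a MYC family factor, at 0.94 and 0.89 and Rras2, a small GTPase, at 0.26 against Ct. Of 18 further precursor genes 1 rose and 1 fell against dTg, and 2 rose and 2 fell against Ct. Over all genes 9.65% rose and 9.22% fell against dTg, and 9.86% and 9.85% against Ct. Nothing is therefore read from the counts of these lists. Scrg1 rose from 19.1 ± 3.17 FPKM in dTg (SD, n = 6) to 39.4 ± 5.84 in dTgDox (SD, n = 3), a difference of 1.03. Tmem132d had 9.36 ± 1.02 and 3.01 ± 0.770 FPKM, a difference of -1.50 (adjusted p = 2.3e-05). Against Ct, Emid1 had a log2 difference of -0.92. Astrocytes also make Scrg1 and neurons also make Tmem132d.

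Signals and axonal partners of the lineage had few calls in either direction. Of 22 signals and receptors 3 rose (13.6%) and 4 fell in each comparison, beside 9.65% of all genes that rose and 9.22% that fell against dTg, so nothing is read from these counts. Fgfr1, a receptor of fibroblast growth factors, rose by 1.09 against dTg, Thra, the main thyroid hormone receptor of brain, by 0.40 and Rxra, its partner receptor, by 0.45. Nrg1, the axonal ligand neuregulin, fell by 0.91 on the log2 scale, Thrb by 0.68 and Id2, an inhibitor of differentiation factors, by 0.41. Of 12 tested genes of the axon and node, the neurofilament Nefl rose by 0.28 and the potassium channel Kcna2 and the node scaffold Ank3 fell by 0.42 and 0.31 against dTg. None of the genes in these lists was called by limma between dTg and Ct, where 1 gene of the signals and 1 of the axon and node had an unadjusted p under 0.05.

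Markers of other cells that share genes with oligodendrocytes were read beside these results. Of 4 tested Schwann cell markers 2 fell against dTg and none rose, and the summed level of the 7 was 13.7 to 14.6 FPKM in dTgDox against 17.5 to 30.5 in dTg, where the marker Pmp2 is listed at 0 in all libraries. Among 10 markers of leptomeningeal fibroblasts, which also express Pdgfra, 2 rose (Dcn and Lum), and the summed level was 31.0 to 157 FPKM in dTgDox and 39.1 to 78.4 in dTg. Of 10 astrocyte markers 3 rose and 1 fell, and of 11 microglia markers 3 rose. These lists are small, and 9.65% of all genes rose and 9.22% fell against dTg, so nothing is read from these counts. Choroid plexus markers averaged 3.92 in dTgDox replicate 3 and at most 1.27 in the untreated libraries. Their part in the oligodendrocyte differences was not tested.

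The doubly deposited library held a different pattern from any group. It lay above every Ct and dTg library for 10 of the 30 genes and below every one for 5. The share of all genes outside those ranges was not counted, so nothing is read from these numbers of genes. High values included Trf at 319 FPKM, Nkx6-2 at 13.7 FPKM and Nkx2-2 at 5.91 FPKM. The low values were those of Olig1 (25.5 FPKM), Olig2 (4.72), Pdgfra (3.20), Cspg4 (0.748) and Gpr17 (3.12). Its mean precursor level was the lowest of the 16 libraries. Its mature level of 5.37 lay just above the highest dTg library, at 5.33, and above dTgDox replicate 1, at 5.34.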

How the data were processed

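Polyadenylated RNA of frontal cortex was read from 1 end in 17 deposited files, of which 1 pair is identical, and 15 libraries were compared. The authors deposited 1 FPKM value per gene and library; the unit was inferred from the values, and no file holds counts. The submitters' processing notes name TopHat2 and DESeq. For the build, annotation, quantifier and versions, nothing is stated in the labels or headers. Symbols and coordinates come from GENCODE M21 (GRCm38), which named 45225 of 46073 identifiers.

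A gene was tested where 3 or more libraries reached 0.5 FPKM. The linear model of limma (version 3.58.1, R version 4.3.3) was fitted to log2(FPKM + 0.5) with 1 mean per group and a trended, robust empirical Bayes step. Each pair of the 3 groups was compared, with two-sided p-values, Benjamini-Hochberg adjustment over 19064 genes, and calls at an adjusted p under 0.05. The fit was tested on simulated data. The 2 flow cells of the labels are not assigned to libraries.

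The 30 genes and all other lists were chosen with earlier results of these data known. All 30 are named; of each other list, the up to 3 genes with the smallest p in each direction among those that passed. Alternatives changed the pseudocount, filter, scaling, weights, groups fitted, replicate block and libraries. The lists not given in the report had these values against dTg: of 9 pericyte and mural markers 2 fell, of 9 endothelial markers 0 were called by limma (0 at an unadjusted p under 0.05), and of 12 striatal, 10 olfactory bulb and 7 tested cerebellar markers 0, 1 and 1 fell. In the same comparison 9.22% of all genes fell, so nothing is read from these counts.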

Additional observations from a re-analysis of the deposited data

Results flagged for a closer look

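In each group of 6, the highest and lowest libraries of the 30 genes were compared with the rest, which made 60 groups, and chance singles out about 1 in 20. A gap to the nearest library of more than 0.625 of the group's range was found for 2. Car2 was low in Ct replicate 3, at 62.4 FPKM against 81.8 to 90.8 in the other Ct libraries. Nkx2-2 was high in dTg replicate 2, at 2.61 FPKM against 1.39 to 1.80 in the other dTg libraries.

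The doubly deposited library enters no comparison, and 10 of the 30 genes were higher there than in every Ct and dTg library. These were Cnp at 167 FPKM, Ermn at 20.1, Anln at 8.07, Gjb1 at 11.2, Trf at 319, Fa2h at 21.3, Tspan2 at 51.0, Nkx6-2 at 13.7, Nkx2-2 at 5.91 and Enpp6 at 3.49 FPKM. Its cerebellar markers averaged 7.82 on the log2 scale, and their part in these values was not tested. How many of all genes lay as high in this library was not counted.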

How the results depend on the processing

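Between dTg and Ct, 0 of the 30 genes were called in each of the 29 alternatives, leaving out libraries included (0 to 0). Against dTg, the 7 genes that rose became 4 with no filter, 2 with the doubly deposited library included in dTg and 24 with striatal and olfactory bulb markers as covariates, and 1 to 10 when each library was left out in turn (1 without dTgDox replicate 2, 10 without Ct replicate 3). Against Ct, the 10 became 5 with the doubly deposited library included, 16 with only the 2 groups compared in the fit, 24 with the covariates, and 1 to 16 when each library was left out (1 without dTgDox replicate 2, 16 without dTg replicate 5). The cause was not tested. Over all genes, the 3596 calls against dTg became 1537 with the doubly deposited library included and 1562 with the replicate block. They became 2077, 2660 and 2155 without dTgDox replicates 1, 2 and 3. The 3758 against Ct became 1504, 2394, 2229, 2733 and 2273 in the same order, and 2342 with only the libraries of low regional markers. With the replicate number as a block, the calls were 0 for dTg against Ct, 1 against dTg and 8 against Ct, but deviations of same-numbered libraries correlated at -0.188 to 0.08 over 10 pairs, 1 of 15 libraries correlated best with its own number, and so the numbers did not pair the samples. Over single genes, none changed sign with a call. The 30 genes gave 870 values in each comparison. Only the 7 genes called against dTg and the 10 called against Ct, each with 29 values, could lose a call. Of the values of these called genes, 39 against dTg and 59 against Ct lost it. Among the genes not called, 32 and 53 values gained a call. Averaging dTg replicates 6 and 7, the covariates and the choice of libraries with low regional markers were added after the data were seen. Read depth is unknown, so no limit from counting can be given.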
